A study of Mus musculus with 4 samples.

Results

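Focal adhesion and stress fibre linker genes were examined in neural progenitor cells (NPCs) on a soft and on a hard matrix, with and without knockdown of Srf. The genes were a list of 33 symbols of cytoplasmic adhesion proteins and actin cross-linking proteins, without integrins, which was chosen by function. All 33 were listed once in each of the 4 libraries, among 21862 genes listed once in all, and 30 of them were among the 10489 genes with an FPKM above 2 in every library. FPKM corrects the read number of a gene for transcript length and for the mapped reads of the library, so that levels of different genes can be compared within a library. The cells were N31, a mouse NPC line made by differentiation of induced pluripotent stem cells that carry Dox-inducible reprogramming factors and rtTA, and all groups share this background. They were kept in NPC medium without EGF and bFGF on matrices of 0.5 kPa (soft, close to the stiffness of brain) or 12 kPa (hard) on type I collagen. Control cells are described only as N31 cells, and whether they carried a control vector is not given in the sources used here. Srf-knockdown cells were N31 cells that expressed the short hairpin RNA shSrf#1, which the study's methods describe as cloned into a retrovirus vector, and are called shSrf NPCs. There was 1 library per condition and hence no replicate error, so that a ratio compares libraries and not conditions, and no p-value is given. Where 2 values follow each other for a cell population, the first is that on the soft and the second that on the hard matrix, and 4 values in a row are those of control on soft, control on hard, shSrf on soft and shSrf on hard matrix.

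Focal adhesions connect integrins, the receptors for the extracellular matrix, with bundles of actin filaments called stress fibres. Talins and kindlins bind the tails of integrins and activate them, the complex of Ilk, Pinch and parvin docks beside them, paxillin and the kinases Fak and Src form a signalling layer, and vinculin, zyxin, VASP proteins, actinins and filamins join the assembly to actin and bear its tension. Srf is a transcription factor that binds DNA at the CArG box, and its cofactor Mkl1 is held back by monomeric actin and released when filaments form. Genes for the actin cytoskeleton are the classic targets of this pathway.

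Promoters of the listed genes were searched because Srf binds the CArG box and TEAD factors bind GGAATG. The windows are those of RefSeq on GRCm38.p6 and run from 250 bases before to 50 bases after a start site. Of the 33 genes, 24 had a window. Tgfb1i1, Nexn, Ptk2, Sorbs3, Tln2, Pxn, Parva, Svil and Lims2 had none and were not searched. A window can lie at an internal start site, and the only window of Flna lay inside the annotated gene. Exact matches on both strands were counted. The CArG box was present in 3 of these 24 genes, all among the 22 that were above the minimum. It was present in 1.51% of 8257 genes above the minimum that had a window and in 1.63% of all 32851 windows. The 3 sequences are shown because their genes are described below, with Vcl and Fermt2 lower and Trip6 not lower in shSrf NPCs. Capitals mark the CArG box. It begins 227 bases before the start site of the window in Vcl and 204 bases before that in Fermt2. In Trip6 it begins at base 2 of a transcript that starts at the start site of the window. The start sites of the Fermt2 and Trip6 windows lie inside the annotated genes. Both genes are on the minus strand and extend to 45530310 and 137314480, beyond their boxes (45530260 to 45530269 and 137314231 to 137314240).
Vcl, chr14:20929148-20929447, plus strand: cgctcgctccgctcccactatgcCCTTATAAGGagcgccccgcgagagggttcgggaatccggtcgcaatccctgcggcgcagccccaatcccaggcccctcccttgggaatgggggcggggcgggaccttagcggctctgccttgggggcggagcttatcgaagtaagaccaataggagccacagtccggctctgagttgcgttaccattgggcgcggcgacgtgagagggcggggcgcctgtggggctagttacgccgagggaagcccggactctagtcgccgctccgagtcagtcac
Fermt2, chr14:45530016-45530315, minus strand: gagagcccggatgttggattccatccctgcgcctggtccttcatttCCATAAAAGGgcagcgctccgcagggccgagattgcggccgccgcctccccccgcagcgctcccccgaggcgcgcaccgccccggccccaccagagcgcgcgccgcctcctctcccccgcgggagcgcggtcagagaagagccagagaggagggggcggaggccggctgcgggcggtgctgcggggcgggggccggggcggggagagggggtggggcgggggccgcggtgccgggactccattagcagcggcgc
Trip6, chr5:137314192-137314491, minus strand: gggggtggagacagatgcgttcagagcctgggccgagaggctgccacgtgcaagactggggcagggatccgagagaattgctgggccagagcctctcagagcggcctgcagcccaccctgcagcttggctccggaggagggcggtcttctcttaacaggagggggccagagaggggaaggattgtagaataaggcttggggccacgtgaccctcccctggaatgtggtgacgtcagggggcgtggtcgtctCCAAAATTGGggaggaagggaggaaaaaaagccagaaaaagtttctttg

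The motif GGAATG was found in 8 of the 24 genes (Vcl, Trip6, Lpp, Fblim1, Evl, Actn4, Flna and Flnc), all among the 22 above the minimum. It was found in 13.6% of the genes above the minimum and 14.7% of all windows. In Vcl it began 143 bases before the start site of the window. In Trip6 it began 32 bases before that of its window, inside the annotated gene. In neither case did it overlap the CArG box. A match is a sequence of letters and was not measured as a binding site.

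Some facts of the libraries bear on all results. By an estimate from the steps between low FPKM values, the libraries held from 24100000 (control, 12 kPa) to 62300000 reads (shSrf, 12 kPa). The targeted gene, Srf, had FPKM values of 34.4 and 35.6 in control and 16.2 and 17.4 in shSrf NPCs (0.5 and 12 kPa). Acta2, Tagln, Myl9 and Cnn1, which the study names as Srf targets, had a summed FPKM of 1060 and 1023 in control and of 49.6 and 76.6 in shSrf NPCs. Of 13 NPC markers, 6 were above the minimum, with a summed FPKM over the list of 1828, 1603, 2473 and 2496, most of it from Vim (1696, 1481, 2380 and 2396). Nes was at 51.6, 36.1, 16.4 and 15.5, and Sox2, which is also a reprogramming factor, at 4.29, 5.49, 19.1 and 20.4. Pax6 was at 2.62, 3.46, 6.49 and 6.78, while Sox1, Hes5 and Olig2 were listed at 0 in all libraries, so that several defining NPC markers were absent and the name NPC is that of the labels. Of 11 mesenchymal markers, 9 were above the minimum, with a summed FPKM over the list between 2740 and 2905 in the 4 libraries. Most of it came from Col3a1 (1730, 1584, 1897 and 1908), and single markers went both ways. Postn (188, 259, 30.2 and 36.8) and Col1a2 (570, 555, 338 and 388) were lower in shSrf NPCs, and Dcn (9.22, 8.62, 26.9 and 26.2) was higher. Of 5 smooth muscle markers, 3 were above the minimum. The summed FPKM over all 5 was 461 and 444 in control and 38.8 and 48.7 in shSrf NPCs. Acta2 and Cnn1 stand in this list and among the named Srf targets. The summed FPKM of 5 epithelial markers (4 above the minimum) was 46.3 and 34.1 in control and 93.3 and 81.7 in shSrf NPCs. Most of this rise came from Krt8 (19.99, 13.7, 51.2 and 41.0) and Krt19 (2.998, 3.54, 19.5 and 19.4). Epcam (3.04, 2.298, 2.45 and 2.22) was lower in shSrf NPCs, and Krt18 (20.2, 14.3, 19.9 and 18.8) was higher only at 12 kPa. For 6 neuron markers (4 above the minimum) the sum was 56.7 and 60.2 in control and 123 and 118 in shSrf NPCs. Stmn2 (19.1, 18.7, 64.6 and 61.3) and Map2 (29.9, 35.1, 51.7 and 50.05) gave most of that rise. Snap25 (4.46, 3.72, 3.11 and 2.45) was lower. The summed FPKM of 5 astrocyte markers (2 above the minimum) was 34.02 and 44.3 in control and 17.2 and 22.5 in shSrf NPCs. Most of it came from Slc1a3 (27.7, 36.7, 9.99 and 13.2), which was lower in shSrf NPCs. Aldh1l1 (5.68, 7.09, 6.77 and 8.96) was higher at each stiffness. Of 6 listed blood markers 2 were above the minimum (summed FPKM over all 6 was 18.3, 17.6, 23.8 and 24.0), and of oligodendrocyte and endothelial markers 0 of 4 and 0 of 3 were. In bulk RNA, fewer cells of a type and less RNA per cell cannot be told apart, and the part of these markers in the results was not tested.

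To ask what Srf knockdown did to the adhesion layer, each gene was compared between Srf-knockdown and control NPCs at the same stiffness, and a gene was counted when it differed by more than 1.5-fold. On the 0.5 kPa matrix, 14 of the 30 genes above the minimum were lower in shSrf NPCs, where 9.28% of all genes above the minimum were, and 2 were higher, where 9.19% of all genes were. On the 12 kPa matrix, 10 of 30 were lower (8.88% of all genes) and 1 was higher (10.2%). These 10 genes were lower at both stiffnesses, namely Tgfb1i1, Fermt2, Lpp, Nexn, Vcl, Flna, Ptk2, Actn1, Lims1 and Parvb, against 6.17% of all genes. Of these, Lims1 came within 1.5-fold at both stiffnesses when ratios were centred within bins of GC content, and the other 9 did not. Only Tns1 was higher at both (6.63% of all genes). Both shSrf libraries lay below both control libraries for 22 of the 30 genes (37.6% of all genes) and above them for 5 (39.8%), which were Bcar1, Tns1, Trip6, Evl and Flnc. The median log2 ratio of the 30 genes was -0.53 at 0.5 kPa and -0.32 at 12 kPa, where that of all genes was 0.011 and 0.0098. The 2 ratios share no library, but both rest on the same cell line and the same hairpin, shSrf#1. Beyond 2-fold, 5 genes were lower at 0.5 kPa (2.86% of all genes) and 4 at 12 kPa (2.22%), of which Fermt2, Tgfb1i1 and Lpp passed at both (1.71%), while 0 genes were higher at 0.5 kPa (2.45%) and 1, Tns1, at 12 kPa (2.74%). With GC centring, Lpp and Nexn came within 2-fold at 12 kPa (log2 ratio -0.98 and -0.92). Flna then passed 2-fold at both stiffnesses (-1.19 and -1.06), and Actn1 passed it at 0.5 kPa (-1.09). At 1.1-fold, 23 genes were lower and 4 higher at 0.5 kPa (35.7% and 37.4% of all genes), and 19 were lower and 5 higher at 12 kPa (35.9% and 37.6%). By sign alone, 24 genes were below and 6 above control at 0.5 kPa (49% and 51% of all genes), and 22 below and 8 above at 12 kPa (49.1% and 50.9%). Counting error alone gives these log2 ratios a standard error from 0.0042 to 0.060 in the 30 genes, which does not cover culture or library preparation.

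**Figure D1:**
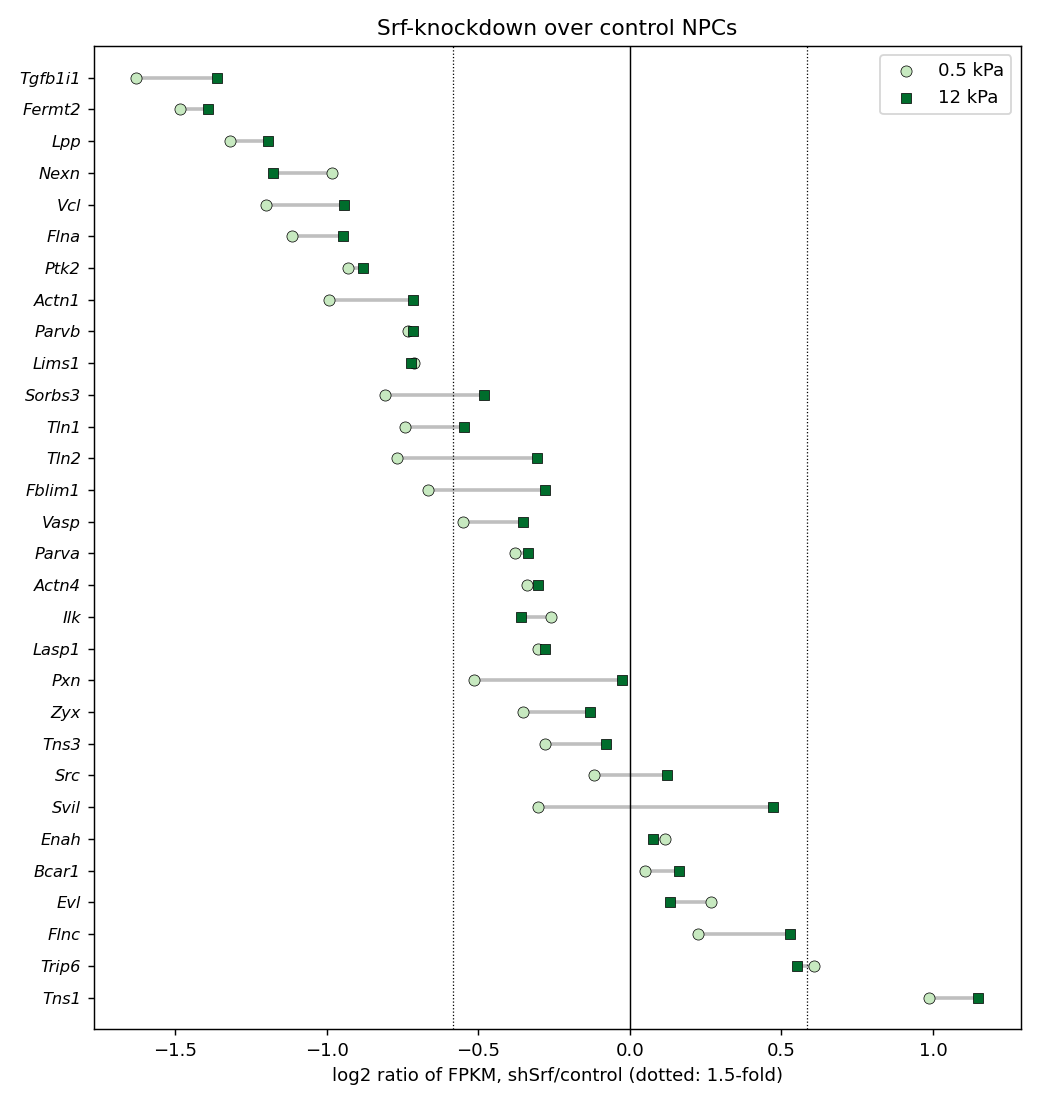
Log2 of the FPKM of shSrf NPCs over that of control NPCs (x axis) for the 30 genes above the minimum (y axis), at 0.5 kPa (light circles) and 12 kPa (dark squares), with 1 library behind each FPKM and no error bar. The dotted lines mark 1.5-fold. Tgfb1i1 and Fermt2 stand at the low end and Tns1 at the high end at both stiffnesses.

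The listed genes summed to an FPKM of 3657 and 3430 in control and of 2310 and 2409 in shSrf NPCs, which is 0.632 and 0.702 of control. Filamin A alone gave 31.1% of the sum in control and 22.7% in shSrf NPCs on the soft matrix. Without it the sums were 2520 and 2390 in control and 1785 and 1869 in shSrf NPCs. The genes were well expressed, with a median FPKM between 44.9 and 49.3 in the 4 libraries, where that of all genes above the minimum was between 21.9 and 22.1.

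**Figure D2:**
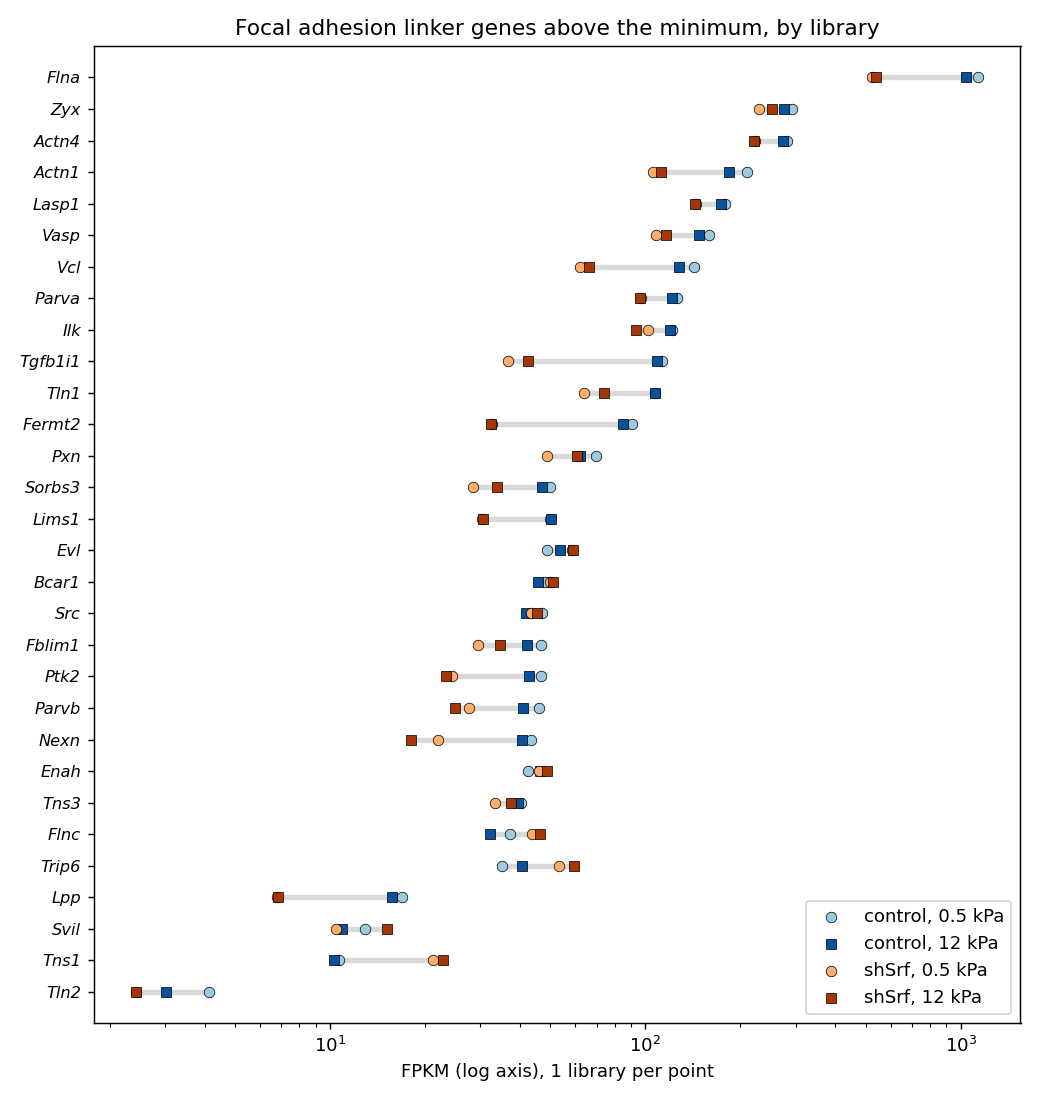
FPKM (x axis, log scale) of the 30 genes above the minimum in each of the 4 libraries, ordered by the level in soft-matrix control NPCs. Blue points are control and orange to brown points shSrf libraries, circles 0.5 kPa and squares 12 kPa, and the grey bar spans the 4 values. Flna is highest with 1138, and Tln2 lowest with 4.13, in soft-matrix control NPCs.

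Among the proteins that activate integrins, kindlin-2 showed the larger difference. Its gene Fermt2 (chromosome 14 of GRCm38, 45458792 to 45530310) had FPKM values of 90.9 and 84.9 in control and of 32.5 and 32.4 in shSrf NPCs, which is 2.80-fold lower at 0.5 kPa and 2.62-fold lower at 12 kPa. Both knockdown values lay below both control values, as they did for 37.6% of all genes above the minimum. Within each cell population the values on both matrices were close. Fermt2 made up over 99% of the summed FPKM of the kindlins in every library. Fermt3, the kindlin of blood cells, had an FPKM between 0.174 and 0.307, from an estimated 10.0 to 38 reads. Fermt1, the kindlin of epithelia, was listed at 0 in both control libraries and at 0.0047 and 0.063 in shSrf NPCs, from an estimated 1.07 and 19.9 reads. Thus 3 of the 33 genes stayed below the minimum in all 4 libraries, and Lims2, the second Pinch gene, is the other of them (0.313 to 0.508).

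Talin-1, the main talin, links integrin tails to actin directly. Tln1 (chromosome 4, 43531513 to 43562583) was at 107 and 108 in control and at 64.0 and 73.7 in shSrf NPCs, 1.67-fold lower at 0.5 kPa and 1.46-fold lower at 12 kPa, where its log2 ratio of -0.55 became -0.78 with GC centring. The control values hardly differed between matrices, while the knockdown value was higher on the hard matrix by 1.15-fold. Tln2 had FPKM values of 4.13 and 3.01 in control and of 2.42 and 2.43 in shSrf NPCs, so that it was 1.70-fold lower at 0.5 kPa and 1.24-fold lower at 12 kPa. Talin-1 thus gave between 96.3% and 97.3% of talin FPKM in every library.

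In the complex of Ilk, Pinch and parvin, which binds integrin tails next to kindlin, the subunits differed in size of change. Lims1, which encodes Pinch-1, had FPKM values of 49.8 and 50.3 in control and 30.4 and 30.5 in shSrf NPCs, 1.64-fold and 1.65-fold lower. With GC centring its log2 ratios of -0.71 and -0.72 were -0.55 and -0.47, within the threshold. Parvb, the gene of β-parvin, had 46.0 and 40.8 in control and 27.7 and 24.8 in shSrf NPCs, 1.66-fold and 1.64-fold lower. In both genes the control and knockdown values were apart by more than the values on the 2 matrices. The matrices are different conditions with 1 library each, so this is no measure of replicate error. Ilk, the pseudokinase at the centre of the complex, was at 122 and 120 in control and 102 and 93.3 in shSrf NPCs, and Parva, the gene of α-parvin, at 126, 121, 97.0 and 96.1 in the same order. These genes were lower by 1.2-fold to 1.3-fold, within the threshold. Parvb made up 26.72% and 25.03% of parvin FPKM in control and 22.2% and 20.5% in shSrf NPCs.

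The largest fall on the soft matrix was in Tgfb1i1 (chromosome 7, 128246812 to 128255699), which encodes Hic-5, a LIM protein related to paxillin. Its FPKM was 113 and 109 in control and 36.6 and 42.4 in shSrf NPCs, 3.10-fold lower at 0.5 kPa and 2.57-fold lower at 12 kPa. Paxillin is the scaffold for which the family is named. Pxn had FPKM values of 69.8 and 61.9 in control and of 48.9 and 60.8 in shSrf NPCs, 1.43-fold lower on the soft matrix and 1.02-fold lower on the hard one. With GC centring its log2 ratios of -0.51 and -0.03 were -0.66, past the threshold, and -0.30. Hic-5 was thus the more abundant transcript of the family in control NPCs (ratio of Tgfb1i1 to Pxn 1.62 and 1.76) and the less abundant one in shSrf NPCs (0.748 and 0.698). Such a ratio is taken within a library and does not depend on a scaling factor of the library. It can still move with the GC content of the 2 transcripts. The third member, Lpxn, had an FPKM between 0.391 and 0.699.

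Of the listed enzymes and scaffolds that act with paxillin, which are Fak, Src and p130Cas, Fak alone passed the threshold. Ptk2 (chromosome 15, 73205102 to 73423820), the gene of Fak, had FPKM values of 46.6 and 42.9 in control and of 24.4 and 23.3 in shSrf NPCs, 1.91-fold and 1.84-fold lower. Its paralog Ptk2b, the gene of Pyk2, stayed between 3.42 and 3.75, so that its share of the FPKM of both kinases was 7.45% and 7.64% in control and 12.3% and 13.8% in shSrf NPCs. Src, the kinase that pairs with Fak, was at 47.1, 41.7, 43.4 and 45.4, and its values in control and knockdown overlapped. Bcar1, the gene of the stretch-sensitive scaffold p130Cas, was at 48.2, 45.6, 49.9 and 51.0. For Src at 12 kPa and for Bcar1 at both stiffnesses, the direction depended on the GC content correction (log2 ratio of Bcar1 0.05 and 0.16 without it, -0.14 and -0.17 with it).

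Vinculin binds talin under tension and recruits actin, and its promoter is the first of those shown above. Vcl (chromosome 14, 20929383 to 21033676) had FPKM values of 143 and 127 in control and of 62.2 and 66.3 in shSrf NPCs, 2.30-fold lower at 0.5 kPa and 1.92-fold lower at 12 kPa. Sorbs3, whose product vinexin binds vinculin, had 49.8 and 47.1 in control and 28.4 and 33.8 in shSrf NPCs, 1.75-fold and 1.40-fold lower, and its log2 ratio at 12 kPa of -0.48 was -0.71 with GC centring. For both genes both shSrf values lay below both control values, as they did for 37.6% of all genes above the minimum.

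The tensins, which bind integrin tails and actin in the long adhesions beneath the cell, went both ways. Tns1 (chromosome 1, 73910232 to 74124548) was at 10.7 and 10.3 in control and at 21.2 and 22.8 in shSrf NPCs, 1.98-fold and 2.22-fold higher. It was the only gene of the list beyond 1.5-fold higher at both stiffnesses. Tns3 was at 40.5, 39.5, 33.3 and 37.5 and Tns2, which is not in the list, at 37.3, 36.2, 27.6 and 29.6, each lower in shSrf NPCs without passing 1.5-fold. The sum of the 4 tensins stayed between 82.6 and 90.3, and within it the share of Tns1 was 12.1% and 11.9% in control and 25.7% and 25.3% in shSrf NPCs.

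Zyxin and its relatives Trip6 and Lpp are LIM proteins that move to stress fibres and adhesions under force. Lpp (chromosome 16, 24393350 to 24992578) had FPKM values of 16.9 and 15.7 in control and of 6.77 and 6.85 in shSrf NPCs, 2.50-fold and 2.29-fold lower. Trip6 went the other way, with 35.0 and 40.5 in control and 53.4 and 59.3 in shSrf NPCs, 1.53-fold and 1.46-fold higher, which lies on both sides of the threshold. Its log2 ratios of 0.61 and 0.55 were 0.35 and 0.17 once centred within bins of GC content. Zyx, the most abundant of them, was at 292 and 275 in control and 229 and 251 in shSrf NPCs, 1.28-fold and 1.096-fold lower. The ratio of Lpp to Trip6 was 0.483 and 0.387 in control and 0.127 and 0.116 in shSrf NPCs. The transcripts of Lpp and Trip6 differ in GC content (43.2% and 60.8%). With GC centring the log2 ratio of Lpp to control was -1.23 and -0.98, so that both genes came nearer to control. Fblim1, the gene of migfilin, which links kindlin to filamin, was at 46.6, 42.1, 29.4 and 34.6, 1.59-fold lower at 0.5 kPa and 1.21-fold lower at 12 kPa.

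Ena/VASP proteins lengthen actin filaments at adhesions and at the leading edge. Vasp had FPKM values of 159 and 148 in control and of 108 and 116 in shSrf NPCs, 1.46-fold and 1.28-fold lower. Its log2 ratios of -0.55 and -0.35 became -0.69 and -0.63 with GC centring, past the threshold at both stiffnesses. Enah was at 42.6, 46.2, 46.1 and 48.7, and Evl at 48.8, 53.6, 58.7 and 58.8. Vasp alone of the family was lower, and its share of the FPKM of the family was 63.5% and 59.7% in control and 50.8% and 51.9% in shSrf NPCs. The small differences of Enah and Evl turned at 12 kPa when ratios were centred within bins of GC content (to -0.07 and -0.25 on the log2 scale).

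Among the proteins that bundle actin or tie it to the membrane, filamin A changed most in absolute terms. Flna (chromosome X, 74223461 to 74249854) had FPKM values of 1138 and 1040 in control and of 525 and 540 in shSrf NPCs, 2.17-fold and 1.93-fold lower. Flnc, the filamin of muscle, was at 37.3, 32.1, 43.6 and 46.3, 1.17-fold and 1.44-fold higher, and this was 0.03 and 0.20 on the log2 scale after centring within bins of GC content. The ratio of Flna to Flnc was 30.5 and 32.4 in control and 12.0 and 11.7 in shSrf NPCs.

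The non-muscle actinins, which cross-link filaments in stress fibres, were unequal. Actn1 (chromosome 12, 80167542 to 80260420) was at 210 and 184 in control and at 106 and 112 in shSrf NPCs, 1.99-fold and 1.64-fold lower. Actn4 was at 281 and 273 in control and at 222 and 221 in shSrf NPCs, 1.26-fold and 1.23-fold lower. The share of Actn1 in actinin FPKM was 42.5% and 39.8% in control and 32.1% and 33.4% in shSrf NPCs. Actn3, a muscle actinin outside the list, was above an FPKM of 2 only in control NPCs, at 2.96 and 4.61, and was at 0.842 and 1.45 in shSrf NPCs. Sorbs2, a relative of vinexin outside the list, was at 2.74, 2.07, 1.69 and 2.66 in the 4 libraries.

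Of the other actin-binding proteins, nexilin had the largest difference. Nexn (chromosome 3, 152236982 to 152266350) was at 43.3 and 40.7 in control and at 22.0 and 18.0 in shSrf NPCs, 1.97-fold and 2.26-fold lower. It was further from control on the hard than on the soft matrix. Lasp1 was at 179, 174, 145 and 144, lower by 1.23-fold and 1.21-fold. Svil, which encodes supervillin and ties actin and myosin to the membrane, was at 12.9, 10.9, 10.4 and 15.2, so that its knockdown values lay on both sides of the control values.

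**Figure D3:**
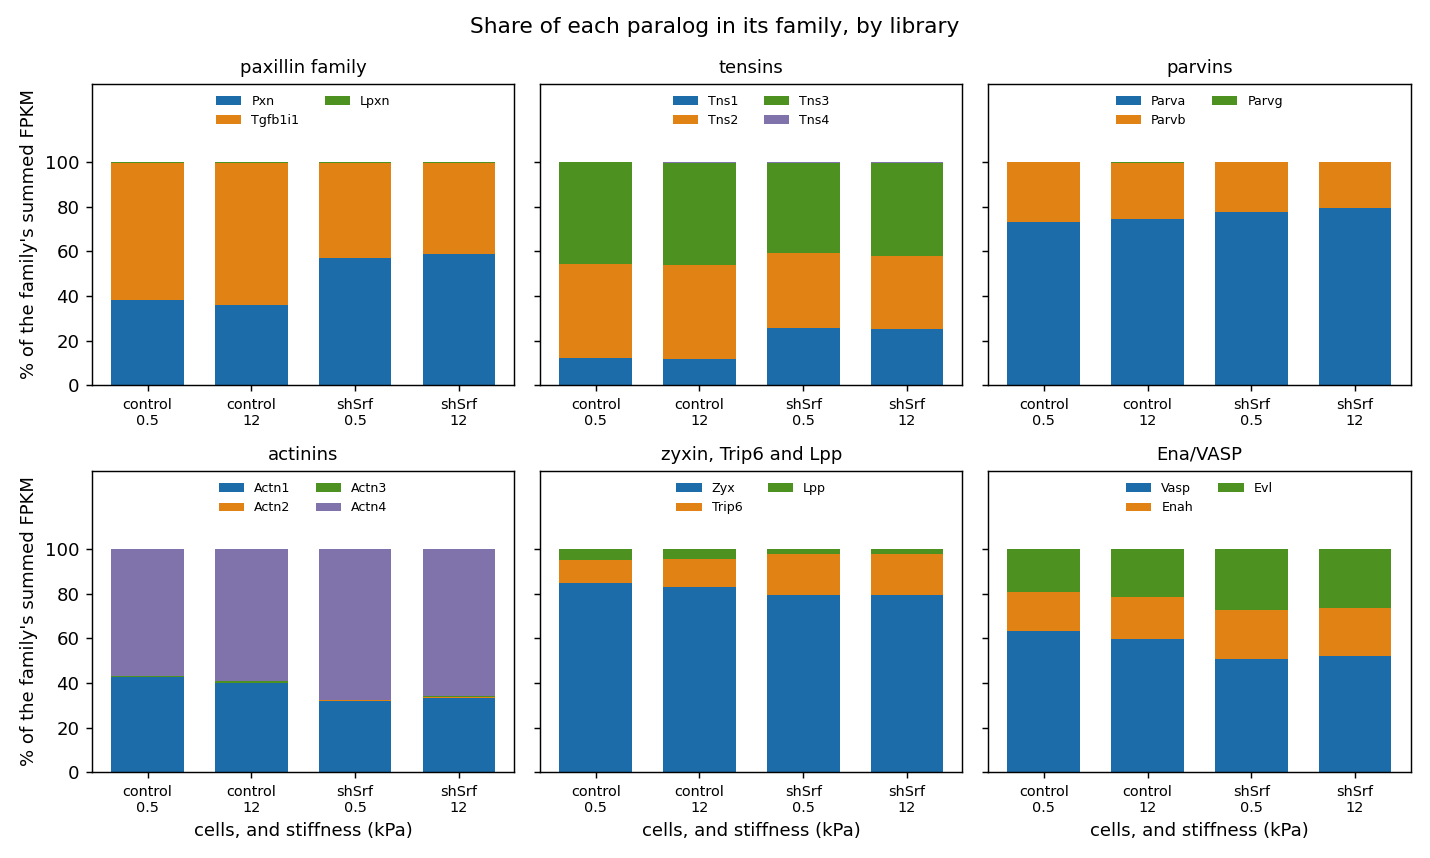
Share of each paralog (colour) in the summed FPKM of its family (y axis, percent) in each of the 4 libraries (x axis), for 6 families and including paralogs outside the list. The share of Tgfb1i1 in the paxillin family went from 61.6% to 42.6%, that of Tns1 in the tensins from 12.1% to 25.7% and that of Vasp in Ena/VASP from 63.5% to 50.8% (control and shSrf NPCs, 0.5 kPa).

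To ask how the same genes followed the stiffness of the matrix, the 12 kPa and 0.5 kPa libraries were compared within each cell population at the 1.1-fold threshold of the study's methods. Differences were far smaller than with Srf knockdown. In control NPCs, 9 of 30 genes were lower on the 12 kPa matrix, where 16.9% of all genes were, and 1 was higher, where 17.9% of all genes were. The 9 genes were Tln2, Svil, Flnc, Actn1, Src, Parvb, Pxn, Vcl and Fblim1, and the higher gene was Trip6. The log2 ratio was below 0 for 25 of the 30 genes (49% of all genes) and above 0 for 5 (50.9%), with a median of -0.087 where that of all genes was 0.0030. The 5 were Tln1, Lims1, Trip6, Enah and Evl. In shSrf NPCs, 2 of 30 genes were lower on the 12 kPa matrix (Nexn and Parvb, 13% of all genes), and 8 were higher (17.6% of all genes), namely Svil, Pxn, Sorbs3, Fblim1, Tgfb1i1, Tln1, Tns3 and Trip6. The log2 ratio was above 0 for 22 of the 30 genes (52.1% of all genes) and below 0 for 8 (47.9%), with a median of 0.071 where that of all genes was 0.0064. No gene of the list passed 1.5-fold in either population, where 0.963% and 0.858% of all genes were lower and higher in control and 0.324% and 0.458% in shSrf NPCs.

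The direction was thus opposite in many genes. Of the 30 genes, 17 had a log2 ratio below 0 in control NPCs and above 0 in shSrf NPCs, a pattern of 24.5% of all genes, and 0 had the reverse, a pattern of 23.3% of all genes. With GC centring these were 16 and 1 of the 30 genes (22.6% of all genes each), since Bcar1, Src and Tln2 left the first pattern, Fermt2 and Parva entered it, and Evl had the reverse (0.20 and -0.10). Beyond 1.1-fold in both populations, the genes with opposite directions were Pxn, Fblim1 and Svil. The share of all genes with that pattern was not counted, so these genes cannot be set against it. On the log2 scale Svil was at -0.23 without and 0.54 with shSrf, where counting error gives a standard error of 0.041 and 0.029. Pxn had -0.17 and 0.31, with standard errors of 0.026 and 0.021, and its value in control was -0.13 and within 1.1-fold with GC centring. Fblim1 had -0.15 and 0.24, with 0.035 and 0.030. Trip6 was higher on the hard matrix in both populations (log2 ratio 0.21 and 0.15), although the latter was 0.05 and within 1.1-fold after GC centring, and Parvb was lower in both (-0.17 and -0.16). The difference between the stiffness ratios of a gene equals the difference between its knockdown ratios at 12 and 0.5 kPa, so both statements rest on the same 4 values. Vcl shows this. Its stiffness ratio was -0.17 without and 0.09 with shSrf on the log2 scale, and its knockdown ratio was -1.20 on the soft and -0.94 on the hard matrix.

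**Figure D4:**
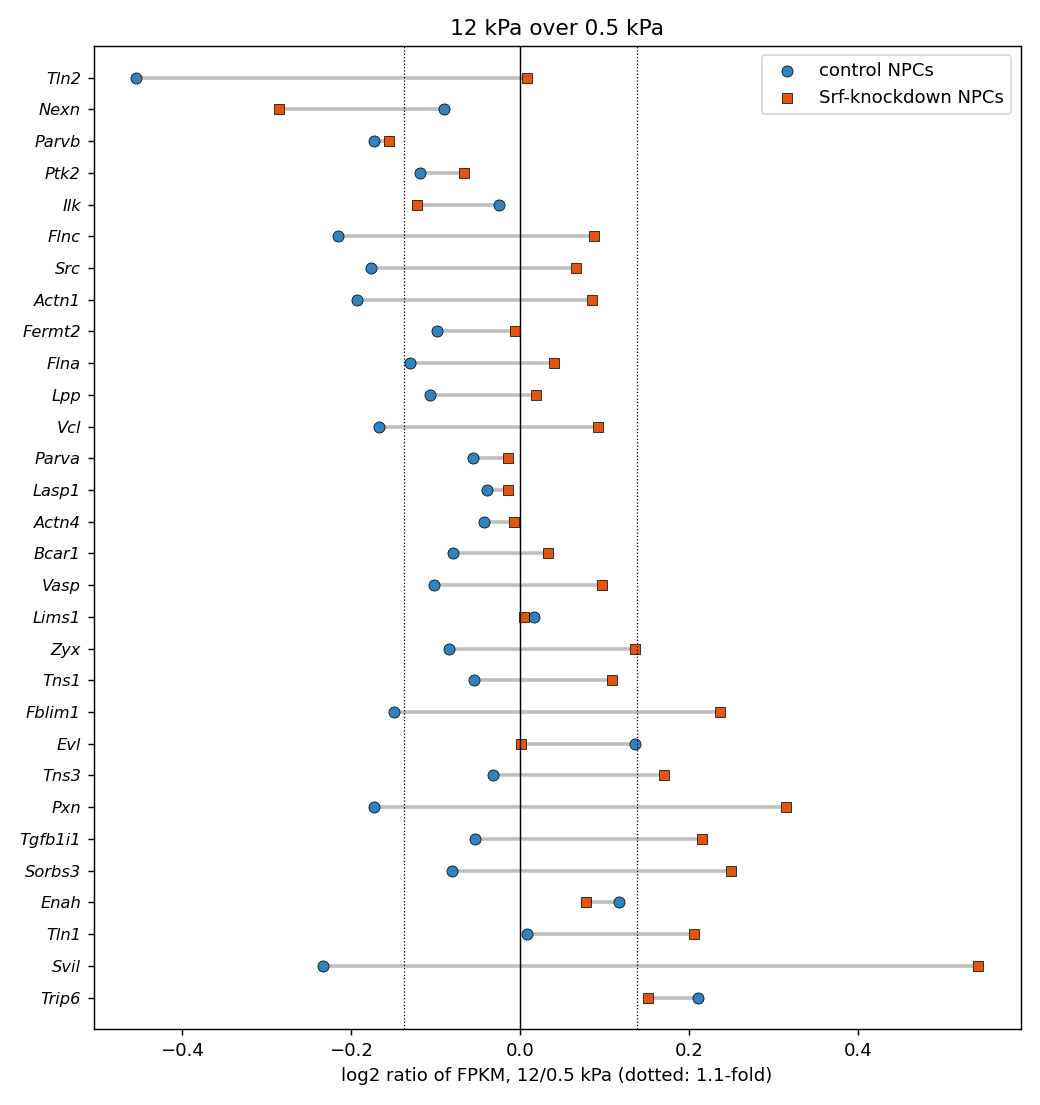
Log2 ratio of FPKM on the 12 kPa to that on the 0.5 kPa matrix (x axis) for the 30 genes above the minimum (y axis), in control (blue circles) and shSrf NPCs (orange squares), with 1 library behind each FPKM and no error bar. The dotted lines mark 1.1-fold. For 17 genes the circle lies below 0 and the square above it, and Svil has the widest gap.

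The ratios also moved with the GC content of transcripts, and 15 of the 30 genes were among the 2392 genes with the highest GC content. The median log2 ratio of shSrf to control NPCs in those 2392 genes was 0.17 at 0.5 kPa and 0.27 at 12 kPa, against -0.14 and -0.22 in the 2393 genes lowest in GC content. After centring within 50 bins of GC content, 15 genes of the list were lower by more than 1.5-fold at 0.5 kPa and 12 at 12 kPa, of which 13 and 9 were among the 14 and 10 without this correction. Lims1 was lost at both stiffnesses, Vasp was gained at both, Pxn was gained at 0.5 kPa, and Tln1 and Sorbs3 were gained at 12 kPa. For the stiffness ratio in shSrf NPCs the median was 0.07 in the genes with the highest and -0.05 in those with the lowest GC content, and after centring 20 of the 30 genes were above 0, with a median of 0.044 in place of 0.071.

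Other genes of the adhesion layer were followed in 4 lists of 56 genes, of which 43 were above the minimum. Of these, 6 were lower and 1 was higher in shSrf NPCs by more than 1.5-fold at 0.5 kPa, and 5 were lower and 3 higher at 12 kPa, where 9.28% and 9.19% of all genes were at 0.5 kPa and 8.88% and 10.2% at 12 kPa, with a median log2 ratio of -0.15 and -0.19. The list of paralogs of the listed genes, in which Lmo7 was also placed, made up most of the falls. Of its 6 genes above the minimum, 4 were lower at 0.5 kPa and 3 at 12 kPa, with Lmo7 among them at both. Among 11 further LIM and actin linkers 1 was lower at 0.5 kPa and 1 higher at 12 kPa, and among 9 regulators of talin 1 was lower at 0.5 kPa, and 2 were lower and 1 higher at 12 kPa. Of 17 signalling partners of paxillin, Fak and Src none was lower at either stiffness. At each stiffness 1 was higher, but it was not the same gene. Large falls were in Lmo7, a LIM protein of cell junctions (26.7 and 35.5 in control, 3.85 and 5.30 in shSrf NPCs) and in Kank4, of a family that binds talin (7.67, 12.8, 2.18 and 3.59). By the mean of the log2 ratios at both stiffnesses, the largest rises were in Kank3 (9.46, 6.33, 12.2 and 12.4), Git1, a partner of paxillin (52.0, 48.1, 74.95 and 76.8), and Wtip, a LIM protein of the Ajuba family (24.2, 24.1, 35.7 and 35.8). Between stiffnesses, 10 of the 43 genes were lower and 6 higher on the hard matrix in control NPCs, and 3 were lower and 8 higher in shSrf NPCs, by more than 1.1-fold, where 16.9% and 17.9% of all genes were in control and 13% and 17.6% in shSrf NPCs.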

How the data were processed

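RNA sequencing libraries were made by the authors from total RNA with a stranded mRNA kit and sequenced single-end. The authors trimmed the reads with cutadapt 1.9.1, mapped them to mm10 and the GENCODE M14 annotation by TopHat2 2.1.0 and Bowtie2 2.2.8, kept reads with a mapping quality of 20 or more and calculated 1 FPKM value for each gene with Cufflinks 2.2.1, which is the deposited unit. Whether strand was used is not given in the sources used here.

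From the deposited FPKM, log2 ratios were computed without pseudocount or rescaling in Python 3.11.15 (numpy 2.4.6, pandas 2.3.3, matplotlib 3.10.9), after removing 135 rows of repeated symbols from the 21997 of each library. Genes were counted where every library exceeded an FPKM of 2, at 1.1-fold (stiffness, the study's threshold) or 1.5-fold (knockdown, chosen here). With 1 library a condition no test was run. Read numbers were estimated from steps between FPKM values under 0.1 and the longest GENCODE M1 transcript of a symbol less 200 nucleotides, and standard errors made from them cover counting error only. The calculations were tested on simulated data. All listed genes, the study's named Srf targets and the 3 largest falls and rises of the pathway lists are named, with list genes under the minimum in shSrf NPCs alone, except for 1 gene that is not reported here. Ptk2b, Tns2 and Lpxn were added as paralogs after their values were seen. The members and lists were chosen with earlier results of these data known. Alternatives were other minima, thresholds, a pseudocount, median and 75th percentile scaling, and centring within 50 bins of GC content.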

Additional observations from a re-analysis of the deposited data

Results flagged for a closer look

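The genes below moved past 1.1-fold in opposite directions in 2 groups, and this difference was not tested, as there was 1 library per condition. The share of all genes that did so was not counted. For the ratio of 12 to 0.5 kPa, Pxn had a log2 value of -0.17 without and 0.31 with shSrf. Fblim1 had -0.15 without and 0.24 with shSrf. Svil had -0.23 without and 0.54 with shSrf. For the ratio of shSrf to control NPCs, Svil had -0.30 at 0.5 kPa and 0.47 at 12 kPa, which rests on the same 4 values.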

How the results depend on the processing

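No paired analysis was possible because no condition had more than 1 library. The threshold moved the counts most. At 1.2-fold, 1 gene of the list was lower and 0 were higher on the hard matrix in control NPCs, and 1 was lower and 2 were higher in shSrf NPCs, and at 1.5-fold all 4 counts were 0. For shSrf against control NPCs, 23 genes were lower and 4 higher at 0.5 kPa, and 19 lower and 5 higher at 12 kPa, at 1.1-fold. At 2-fold, 5 were lower and 0 higher at 0.5 kPa and 4 lower at 12 kPa. Centring within bins of GC content gave 2 genes higher on the hard matrix in control NPCs, 1 gene (Tns1) higher in shSrf NPCs at 0.5 kPa, since Trip6 then stayed within 1.5-fold, and 4 genes with a ratio to control above 0 at 12 kPa in place of 8. The number of genes with a stiffness ratio above 0 in control and below 0 in shSrf NPCs was 0 as reported, 2 when ratios were centred on the median or scaled to the 75th percentile, and 1 with GC centring. Otherwise the other minima, the pseudocount and both scalings left every count of the list within 1.5 times its value, and every median stayed on the same side of 0. The counts of ratios above or below 0 and those over 2 ratios under these settings were added after seeing the data.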
